A study of Mus musculus with 12 samples.

Results

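The 35 genes described here make cholesterol and fatty acids, or sense and export cholesterol, and were followed in regulatory T (Treg) cells of mice with and without CNS4, an enhancer of Foxp3. They were taken from a list of names, and a gene was kept where its mean over the 12 libraries was at least 1 CPM (counts scaled to library size, here with TMM factors, which balance the bulk of genes between libraries). The count table held all 35, of 55453 genes in all, and 23 were kept. Of the 16 genes annotated on the plus strand all 16 were kept, and of the 19 on the minus strand 7 were. Minus-strand genes are given apart, because plus-strand genes held 95.8 to 97.2% of the reads of protein-coding genes in each library, so that little can be read from the level of a gene on the other strand.

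Treg cells hold other immune cells in check and are defined by Foxp3, a transcription factor. The cells were sorted as CD4+Foxp3+ from C57BL/6 mice matched for age and sex, whose age was not given, and the series title and the letters Thy in the sample titles place them in the thymus. All animals were on the same strain, and each group had 3 libraries: males labelled "CNS4 floxed (wild type)", males labelled "CNS4 knockout", females labelled "CNS4 floxed heterozygotes" and females labelled "CNS4 knockout heterozygotes". The male floxed libraries carry the numbers 1, 2 and 4, and those of the other groups 1, 2 and 3. The labels gave neither the way the enhancer was deleted nor the allele in use in the female cells. Nor did they state whether libraries of a group came from different animals, so p-values measure only the spread between these libraries, which may be technical.

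Gene counts per library ran from 12423335 to 30244505, and libraries of 1 group differed by more than counting noise. All 11 T cell and Treg markers were detected at 1 CPM or more on average, with Foxp3 at 2227 to 2675 CPM in male floxed, 1462 to 2037 in male knockout, 2582 to 2658 in female floxed and 685 to 1824 in female knockout libraries. The deleted enhancer itself leaves no count by which the genotype could be checked. For each library, levels relative to the other libraries were correlated by rank with the GC content of the transcript across 5628 genes. The correlation was lowest in female knockout libraries 1 and 3, at -0.41 and -0.32. It was -0.15 in female knockout library 2 and -0.09 to 0.47 in the other 9. Foxp3 was 685 and 825 CPM in female knockout libraries 1 and 3 and 1824 CPM in female knockout library 2. Markers of double-positive thymocytes, of which 5 of 8 were over 1 CPM on average and none was at 0 in every library, summed to 463 and 754 CPM there and to 331 CPM in female knockout library 2, against 201 to 396 in male floxed, 210 to 423 in male knockout and 311 to 427 in female floxed libraries. The part of these differences in the results was not tested, and female values are given with and without female knockout libraries 1 and 3. Those without them rest on 1 knockout library, whose own spread is not known. The GC correlation was highest in male floxed library 4 and male knockout library 3, at 0.47 and 0.40, against -0.09 and 0.03 in male knockout libraries 1 and 2. Male knockout library 3 also had the most counts, 30244505. Myeloid and dendritic markers, of which 13 of 20 were over 1 CPM on average and none was at 0 in every library, summed to 105 to 1439 CPM in male floxed, 258 to 1545 in male knockout, 297 to 1247 in female floxed and 833 to 1608 in female knockout libraries.

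As background, cells build cholesterol from acetyl-CoA through mevalonate and squalene, and fatty acids from the same acetyl-CoA through malonyl-CoA. Most enzymes of both routes are switched on by the SREBP transcription factors (Srebf1, Srebf2), which the escort protein Scap carries to the Golgi for cleavage when membrane sterol is low, and which the Insig proteins hold back in the endoplasmic reticulum when it is high. When oxysterols accumulate, the LXR receptors raise the exporters Abca1 and Abcg1. Activated and dividing T cells are known to use the SREBP route for new membranes, and Treg cells to depend on mevalonate metabolites for their suppressive function.

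SREBP factors bind sterol regulatory elements, often close to CCAAT boxes bound by the factor NF-Y, and both were searched in the RefSeq promoter windows (250 bases before to 50 after a start, GRCm38.p6), which were at hand for 27 of the 35 genes. The windows of 4 enzymes and of Srebf2 are shown because these genes carry the comparison below, as the 250 bases before the start on the plus strand. Capitals mark TCACNCCA, extended to TCACNCCAC where the last base matches, and CCAAT or its reverse complement ATTGG. The windows are chr13:119690101-119690350 for Hmgcs1, chr13:8885356-8885605 for Idi1, chrX:72918271-72918520 for Nsdhl, chr10:76531355-76531604 for Lss and chr15:82147019-82147268 for Srebf2.
Hmgcs1: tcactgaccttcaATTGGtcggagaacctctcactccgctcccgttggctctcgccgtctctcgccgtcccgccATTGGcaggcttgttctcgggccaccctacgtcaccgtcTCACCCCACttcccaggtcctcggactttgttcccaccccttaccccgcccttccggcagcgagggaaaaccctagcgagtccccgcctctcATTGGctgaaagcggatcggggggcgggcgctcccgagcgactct
Idi1: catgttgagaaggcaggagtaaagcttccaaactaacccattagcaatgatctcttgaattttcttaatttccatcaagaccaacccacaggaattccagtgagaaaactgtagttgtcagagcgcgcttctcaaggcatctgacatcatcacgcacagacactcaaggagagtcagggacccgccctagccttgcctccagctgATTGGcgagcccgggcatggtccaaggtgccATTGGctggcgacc
Nsdhl: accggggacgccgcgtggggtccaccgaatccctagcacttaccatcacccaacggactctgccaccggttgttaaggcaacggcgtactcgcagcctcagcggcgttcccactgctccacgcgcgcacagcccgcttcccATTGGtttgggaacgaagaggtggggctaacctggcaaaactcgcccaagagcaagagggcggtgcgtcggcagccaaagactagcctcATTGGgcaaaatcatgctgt
Lss: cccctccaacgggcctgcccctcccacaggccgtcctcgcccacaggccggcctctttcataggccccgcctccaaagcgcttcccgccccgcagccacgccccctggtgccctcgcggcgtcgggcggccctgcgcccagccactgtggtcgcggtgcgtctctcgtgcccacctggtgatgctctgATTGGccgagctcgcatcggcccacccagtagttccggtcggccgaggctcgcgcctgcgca
Srebf2: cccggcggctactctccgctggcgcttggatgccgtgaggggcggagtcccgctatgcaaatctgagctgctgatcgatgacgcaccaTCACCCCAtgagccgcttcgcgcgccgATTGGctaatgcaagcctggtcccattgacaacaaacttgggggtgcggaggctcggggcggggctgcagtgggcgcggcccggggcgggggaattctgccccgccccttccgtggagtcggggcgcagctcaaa
The longer element was found in 1 of the 27 genes, Hmgcs1, with its first base at position -137 from the start, and in 1.44% of all 27025 genes with a window, both strands searched. The shorter form, which lies within it, was found in 3 of 27 genes, Hmgcs1, Srebf2 and Msmo1, against 4.97% of genes. CCAAT was found in 20 of 27, against 41.1% of genes, and up to 3 times within a single sequence printed here. The E box CACGTG was found in 6 of 27, against 8.09% of genes. A match describes letters and not a bound site.

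Levels were first compared between genes per length of exon, on the CPM per kilobase scale. Among the 16 plus-strand genes the fatty acid desaturase Scd2 stood first at a mean of 187 CPM per kilobase, followed by Srebf2 at 75.1 and the exporter Abcg1 at 44.7. Of the cholesterol enzymes, Hmgcs1, the HMG-CoA synthase that feeds the pathway, stood first at 33.2 CPM per kilobase, and Dhcr7, the reductase of the last step, second at 22.7. Scap at 19.9 and the sterol dehydrogenase Nsdhl at 19.3 were next and lay within each other's range over libraries. The phosphomevalonate kinase Pmvk was at 16.5, the squalene epoxidase Sqle at 9.72, the mevalonate kinase Mvk at 7.52, the desaturase Fads1 at 6.83, the elongase Elovl6 at 6.66 and Insig1 at 6.10 CPM per kilobase. The lanosterol synthase Lss at 3.80, the isomerase Idi1 at 2.37 and the acetyl-CoA carboxylase Acaca at 1.83 were lowest.

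Across libraries, Scd2 was the steadiest, with its highest library 1.24 times its lowest, and Elovl6 followed at 1.47 times. The 8 cholesterol enzymes lay between 1.61 times, for Dhcr7 and Pmvk, and 2.87 times, for Idi1. Insig1 spanned 25.4 times, Scap 10.8 times and Fads1 4.64 times.

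**Figure D1:**
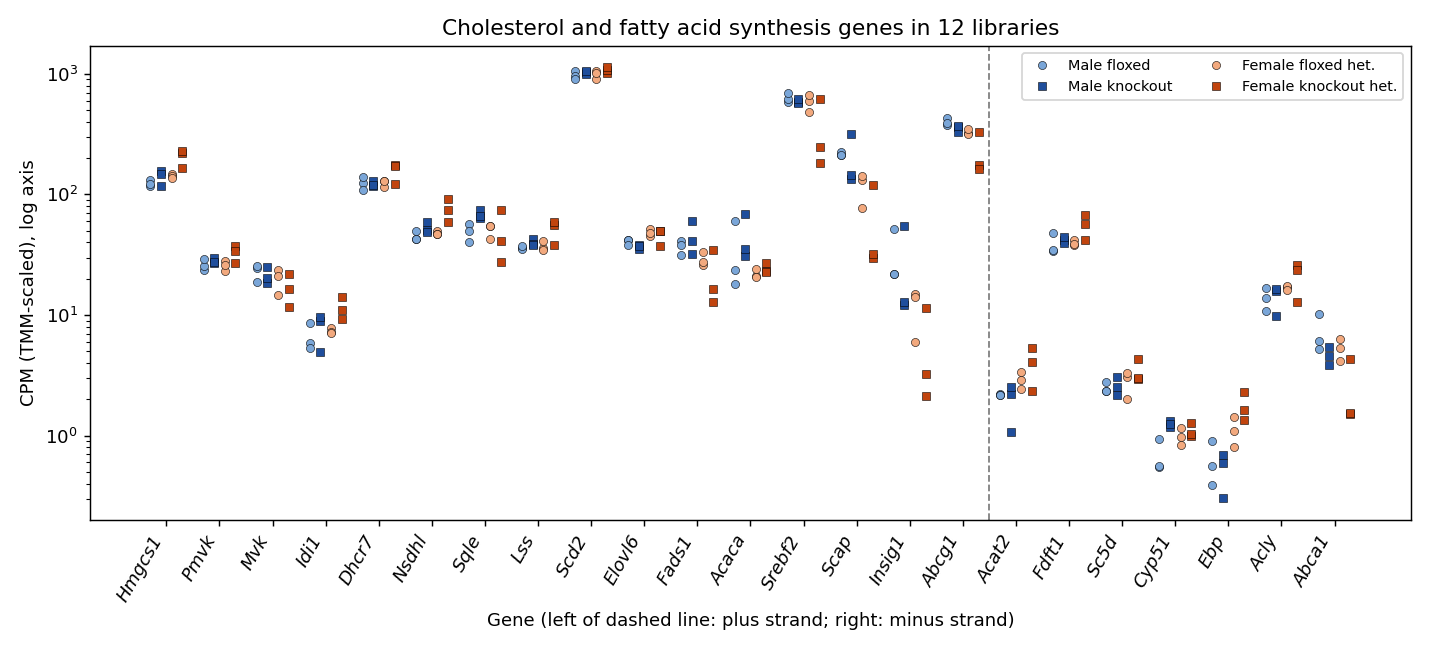
Level of the 23 kept genes in each of the 12 libraries, as TMM-scaled CPM on a log axis, with 1 point per library and 1 symbol and colour per group, plus-strand genes left of the dashed line and minus-strand genes right of it. Scd2 lies in a narrow band near 1020 CPM, while Insig1 is spread from 2.14 to 54.4 CPM.

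No gene of the 23 passed an adjusted p of 0.05 between knockout and floxed cells in males, in females or in the mean of both contrasts. The test was the quasi-likelihood test of edgeR, adjusted by Benjamini-Hochberg over all 12411 genes tested, of which 0.0242% passed in males, 0.201% in females and 3.31% over both. At an unadjusted p under 0.05 there were 1 higher and 0 lower genes of 23 in males (8.12% of all genes), 4 higher and 2 lower in females (19.2%) and 4 higher and 2 lower over both (20.2%), shares near the background. DESeq2 called 0 in males (2.03% of all genes), 2 in females (7.3%) and 3 over both (9.17%). Limma-voom with quality weights called 0 in males (1.43% of all genes), 14 in females (43.8%) and 13 over both (37.3%). The test of the female contrast minus the male one passed for 0 of 23 genes, beside 0% of all genes, and for 0 at an unadjusted p under 0.05, beside 2.73%. For this difference limma-voom called 2, beside 8.38% of all genes, and DESeq2 0, beside 0%.

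By role, values in the heterozygous females are given as a description. The 8 plus-strand cholesterol enzymes had a median log2 fold change (knockout over floxed) of 0.40, with 6 above 0 and 2, Mvk and Sqle, below, and the 3 plus-strand regulators Srebf2, Scap and Insig1 a median of -0.95, where all genes tested had -0.02. In males these medians were 0.16 and -0.12, beside 0.01 for all genes, and over both contrasts 0.26 and -0.54, beside -0.02. The 4 plus-strand fatty acid genes had medians of 0.17 in males and 0.02 in females. The summed level of the 8 enzymes was 434 ± 21.2 CPM (SD, n = 3) in male floxed, 481 ± 29.7 (SD, n = 3) in male knockout, 455 ± 14.2 (SD, n = 3) in female floxed and 595 ± 68.8 (SD, n = 3) in female knockout libraries.

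Female knockout libraries 1 and 3, which had the lowest correlations with GC content, differed from library 2 in both sums. Their enzyme sums were 631 and 639 CPM, against 516 in library 2 and 439 to 464 in the female floxed libraries. Their regulator sums were 217 and 282 CPM, against 752 in library 2 and 570 to 823 in female floxed libraries. With library 2 as the lone female knockout sample, in a fit that takes it to vary like the other groups, the enzyme median was 0.19 and the regulator median 0.04. Without it, edgeR called 10 of the 23 genes in females, 5 higher (Hmgcs1, Nsdhl, Lss, Dhcr7 and the minus-strand gene Fdft1) and 5 lower (Srebf2, Scap, Fads1, Abcg1 and the minus-strand gene Abca1), beside 23.7% of all genes. Over both contrasts it then called 8, beside 22.6%, and for the difference between the sexes 2, beside 8.5%.

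**Figure D2:**
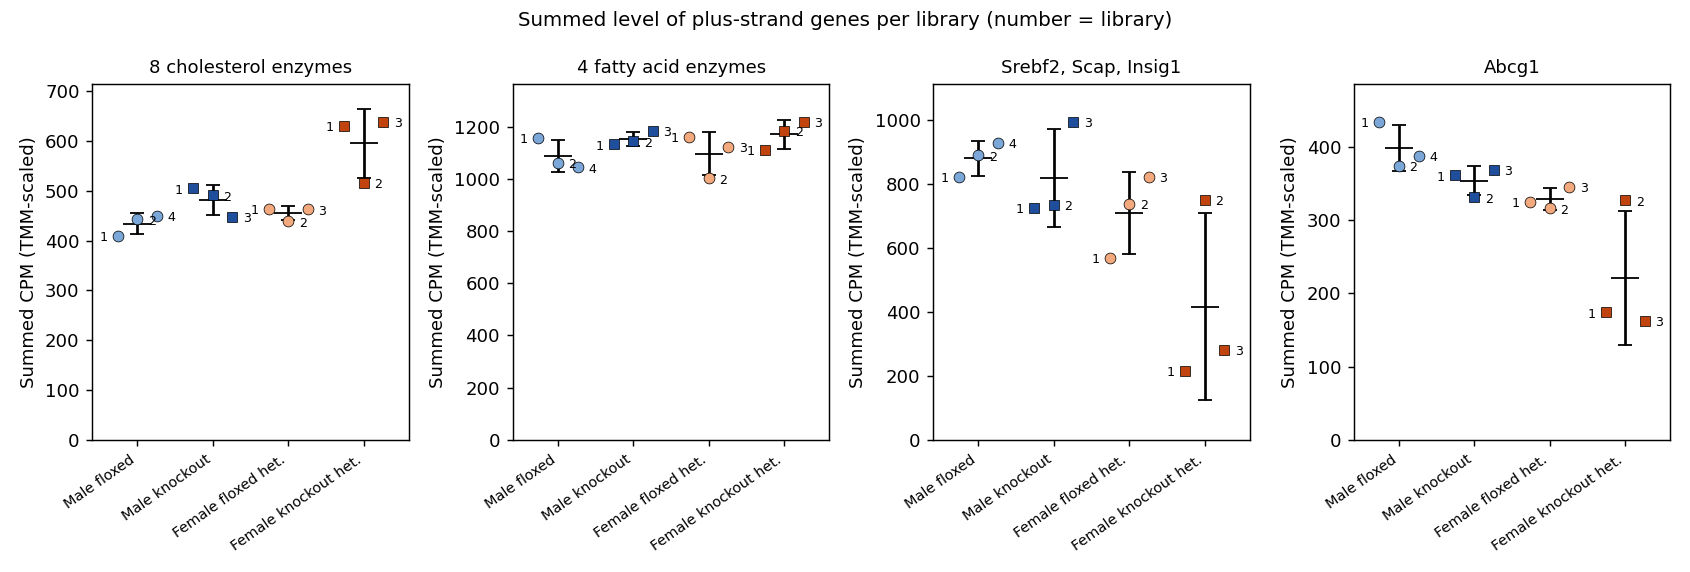
Summed level of the 8 cholesterol enzymes, the 4 fatty acid genes and the 3 regulators, all on the plus strand, and of Abcg1, as TMM-scaled CPM, with 1 point per library, numbered, and the mean with its SD per group. Female knockout libraries 1 and 3 have the highest enzyme sums (631 and 639 CPM) and the lowest regulator sums (217 and 282 CPM) of the 12 libraries.

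The early steps, from acetyl-CoA to the isoprenoid units, held 4 plus-strand genes. Hmgcs1 was at 118, 133 and 121 CPM in male floxed libraries 1, 2 and 4, at 156, 149 and 118 in male knockout libraries 1, 2 and 3, at 147, 142 and 137 in female floxed libraries 1, 2 and 3, and at 219, 165 and 228 in female knockout libraries 1, 2 and 3. The female groups did not overlap, with library 2 the nearest to the floxed values, while in males knockout library 3 lay at the level of the lowest floxed library. Its log2 fold change was 0.52 in females (SE 0.15, adjusted p = 0.133) and 0.18 in males (SE 0.15, adjusted p = 0.933), by edgeR. Over both it was 0.35 (SE 0.10, edgeR adjusted p = 0.0947), with a 95% interval of 0.12 to 0.58, and without female knockout libraries 1 and 3 the female value was 0.22. Without male knockout library 3 it passed over both, as the one gene of the 23 beside 6.11% of all genes, at 0.43 with an edgeR adjusted p of 0.036, where its adjusted p over all its alternatives ran from 0.00129 to 0.541. Of the exon bases of Hmgcs1, 557 are shared with exons on the other strand, so that its counts are uncertain to that extent.

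Idi1, which interconverts the isoprenoid units, was at 7.83, 7.25 and 7.04 CPM in the female floxed and 11, 9.22 and 14.2 in the female knockout libraries, and was chosen for this description after its values were seen. These groups did not overlap, whereas its male values did, at 5.86, 8.61 and 5.29 CPM in floxed and 8.87, 9.66 and 4.94 in knockout libraries. The log2 fold change was 0.63 in females (SE 0.29, edgeR adjusted p = 0.264) and 0.24 in males (SE 0.29, edgeR adjusted p = 0.999), and 0.33 in females without libraries 1 and 3. Of its exon bases, 323 are shared with the other strand. Pmvk had a female value of 0.35 (edgeR adjusted p = 0.276) and Mvk one of -0.24 (edgeR adjusted p = 0.615), with male values of 0.11 and -0.11. Without libraries 1 and 3 the female values were 0.08 and 0.17.

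Past squalene the sterol branch also held 4 plus-strand genes. Nsdhl, on chromosome X, takes part in the removal of methyl groups from the sterol ring. It was at 43.0, 49.5 and 42.4 CPM in male floxed, 58.7, 50.6 and 49.2 in male knockout, 49.8, 46.9 and 47.0 in female floxed and 92.1, 58.8 and 74.0 in female knockout libraries. Every female knockout library was above every female floxed one, and in males knockout library 3 lay just within the floxed range. Nsdhl had the smallest p of the 23 genes in females and over both: 0.65 in females (SE 0.17, adjusted p = 0.115), 0.23 in males (SE 0.17, adjusted p = 0.904) and 0.44 over both (SE 0.12, adjusted p = 0.0766, 95% interval 0.17 to 0.70), by edgeR. Without female knockout libraries 1 and 3 the female value was 0.30.

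Lss, which closes squalene epoxide into lanosterol, was at 35.9, 35 and 37.3 CPM in male floxed, 42.4, 39.0 and 37.8 in male knockout, 36.1, 34.4 and 41.1 in female floxed and 55.8, 38.0 and 58.7 in female knockout libraries. The male groups did not overlap, by a margin of less than 1 CPM, and the female groups did, since knockout library 2 lay among the floxed values. Its log2 fold change was 0.14 in males (SE 0.17, edgeR adjusted p = 0.999) and 0.45 in females (SE 0.17, edgeR adjusted p = 0.218), and 0.04 in females without libraries 1 and 3. Over both it was 0.30 (SE 0.12, edgeR adjusted p = 0.213). The counts of Lss are uncertain too, with 381 exon bases shared with the other strand.

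Dhcr7, which makes cholesterol from its direct precursor, was at 124, 110 and 139 CPM in male floxed, 130, 118 and 119 in male knockout, 129, 116 and 129 in female floxed and 177, 121 and 172 in female knockout libraries. Male groups overlapped fully, and of the female knockout libraries only 1 and 3 lay above the floxed range. The log2 fold change was 0.33 in females (SE 0.15, edgeR adjusted p = 0.273) and -0.03 in males (SE 0.15, edgeR adjusted p = 0.999), and -0.04 in females without libraries 1 and 3.

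Sqle, the epoxidase that is a rate-limiting step of the sterol branch, was at 40.2, 57.2 and 49.3 CPM in male floxed, 64.3, 74.7 and 66.4 in male knockout, 42.7, 54.8 and 54.8 in female floxed and 27.6, 74.1 and 40.9 in female knockout libraries, and was chosen for this after its values were seen. Male knockout libraries were all above the floxed ones, whereas of the female knockout libraries 1 and 3 lay below and 2 above every floxed library. The log2 fold change was 0.49 in males (SE 0.30, edgeR adjusted p = 0.824) and -0.10 in females (SE 0.30, edgeR adjusted p = 0.872), and 0.55 in females without libraries 1 and 3.

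Counted over all 23 genes, the 3 knockout values lay above the 3 floxed values in males for 3 genes (Sqle, Lss and the minus-strand gene Cyp51), beside 8.2% of all genes, and below them for 1 (Abcg1), beside 6.13%. In females they lay above for 3 (Hmgcs1, Idi1 and Nsdhl), beside 15.3%, and below for 0, beside 9.7%. With CPM to the raw total, 4 lay above in females, beside 13.5% of all genes, and 1 below, beside 10%. No gene of the 23 was among these counts in both sexes, beside 3.97% of all genes for higher and 1.78% for lower.

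**Figure D3:**
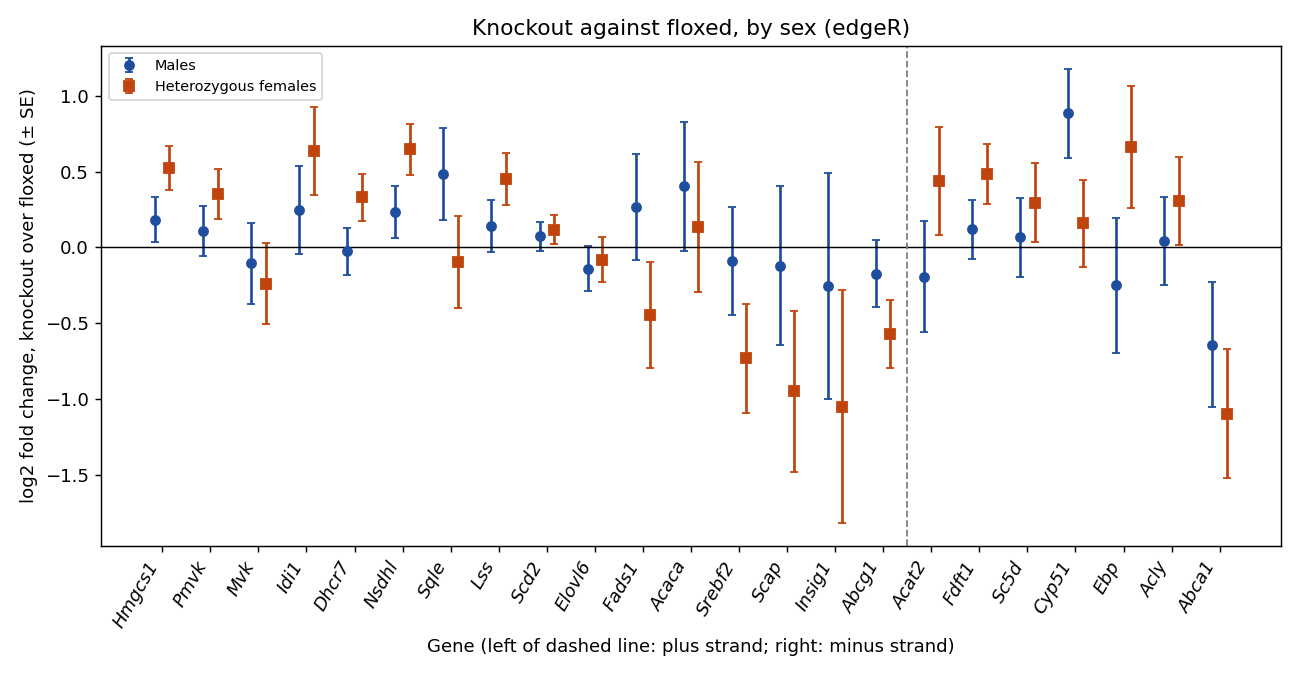
Log2 fold change of knockout over floxed for the 23 kept genes, with its SE, in males (circles) and heterozygous females (squares), plus-strand genes left of the dashed line. Female values are highest for Ebp, Nsdhl and Idi1 (0.66, 0.65 and 0.63) and lowest for Abca1 and Insig1 (-1.10 and -1.05), and the male values lie closer to 0 for most genes.

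Among the regulators, Srebf2, the SREBP that acts chiefly on cholesterol enzymes, was at 588, 616 and 694 CPM in male floxed, 579, 578 and 623 in male knockout, 487, 593 and 666 in female floxed and 184, 621 and 247 in female knockout libraries. The male groups overlapped, and female knockout library 2 lay within the floxed range while 1 and 3 were far below it. The log2 fold change was -0.73 in females (SE 0.36, edgeR adjusted p = 0.287) with an interval of -1.53 to 0.07. In males it was -0.09 (SE 0.36, edgeR adjusted p = 0.999). Without libraries 1 and 3 the female value was 0.10, and after a correction for GC content and length it was -0.28, so that neither its direction nor its size was stable.

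Insig1, the anchor that holds the Scap and SREBP pair back, was at 21.7, 51.4 and 22.0 CPM in male floxed, 12.1, 12.9 and 54.4 in male knockout, 5.94, 15 and 14 in female floxed and 3.26, 11.5 and 2.14 in female knockout libraries. Male floxed library 2 and male knockout library 3 exceeded every other library, and female knockout libraries 1 and 3 were the lowest of the 12. Its SE was accordingly wide, with a log2 fold change of -1.05 in females (SE 0.77, edgeR adjusted p = 0.441) and -0.26 in males (SE 0.74, edgeR adjusted p = 0.999), and -0.02 in females without libraries 1 and 3. Scap, described in full after its values were seen, was at 213, 223 and 214 CPM in male floxed, 134, 145 and 318 in male knockout, 77.0, 131 and 142 in female floxed and 29.6, 119 and 32.2 in female knockout libraries. The highest Scap level was again in male knockout library 3 and the lowest in female knockout libraries 1 and 3. The female log2 fold change of Scap was -0.95 (SE 0.53, edgeR adjusted p = 0.328), and 0.04 without libraries 1 and 3. With 985 exon bases shared with the other strand, the counts of Scap are uncertain to that extent. Transcripts of Scap and Srebf2 have GC contents of 59.1 and 57.9%, the highest of the 16, and those of Idi1 and Hmgcs1 41.9 and 43.1%, the lowest.

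Across the 16 plus-strand genes the female log2 fold change had a Spearman rho of -0.52 with the GC content of the transcript, and across all 9473 plus-strand genes tested one of -0.32. In males these were -0.32 and -0.11. The genes share libraries and are no independent replicates, so these are descriptions only. After the GC and length correction the female values were 0.30 for Hmgcs1, 0.42 for Nsdhl, 0.35 for Idi1, 0.44 for Lss, -0.40 for Scap and -1.12 for Insig1, and the enzyme median was 0.35, beside -0.14 for all genes. No gene of the 23 passed in that fit either, in any contrast.

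**Figure D4:**
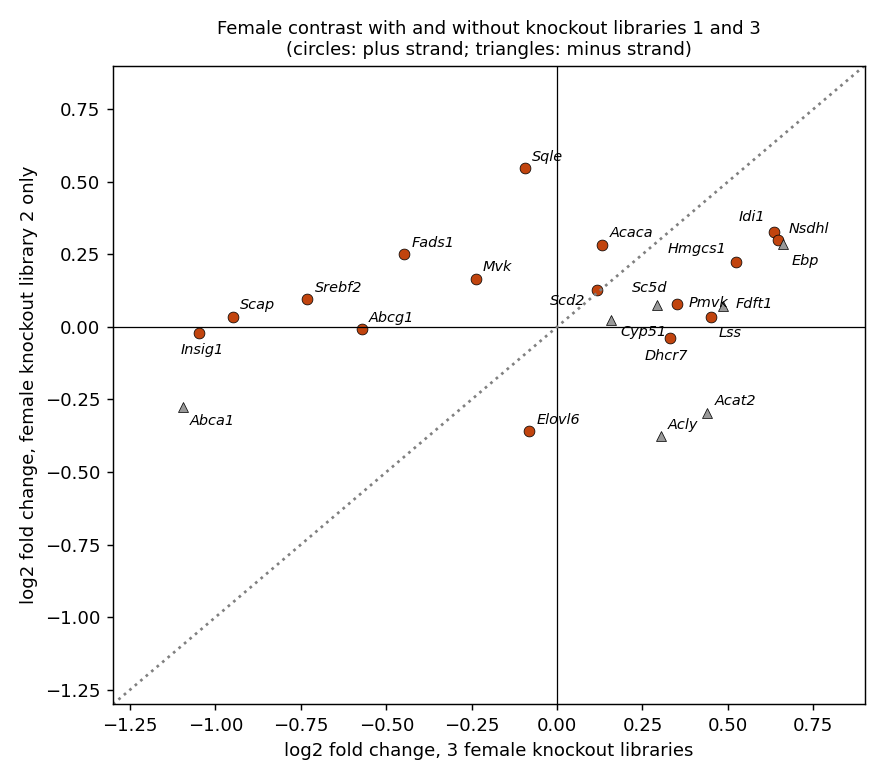
Female log2 fold change of the 23 kept genes from all 3 knockout libraries (horizontal axis) against that with knockout library 2 alone (vertical axis), circles for the plus and triangles for the minus strand, with the dotted line marking equal values. Srebf2, Scap, Insig1 and Abcg1 lie between -1.05 and -0.57 on the horizontal axis and within 0.10 of 0 on the vertical one. Idi1, Nsdhl and Hmgcs1 lie above 0 on both, which follows from library 2 lying above every female floxed library for them. Other genes, among them Ebp and Pmvk, also lie above 0 on both.

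On the export side, Abcg1, which passes cholesterol to high-density lipoprotein and is a classical LXR target, was at 434, 375 and 388 CPM in male floxed, 361, 331 and 369 in male knockout, 326, 316 and 346 in female floxed and 174, 327 and 163 in female knockout libraries. Male knockout values were all below the floxed ones, and in females only libraries 1 and 3 were. The log2 fold change was -0.17 in males (SE 0.22, edgeR adjusted p = 0.999), -0.57 in females (SE 0.22, edgeR adjusted p = 0.222) and -0.37 over both (SE 0.16, edgeR adjusted p = 0.220), and -0.01 in females without libraries 1 and 3. Abca1, the other LXR-driven exporter, is on the minus strand and was at 10.3, 6.13 and 5.22 CPM in male floxed, 4.59, 3.84 and 5.39 in male knockout, 4.19, 5.29 and 6.37 in female floxed and 1.51, 4.36 and 1.55 in female knockout libraries. Its groups overlapped in both sexes, and the lowest values were again those of female knockout libraries 1 and 3. Its log2 fold change was -0.64 in males (SE 0.41, edgeR adjusted p = 0.844), -1.10 in females (SE 0.43, edgeR adjusted p = 0.219) and -0.87 over both (SE 0.30, edgeR adjusted p = 0.140), and -0.27 in females without libraries 1 and 3.

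Of the 4 plus-strand fatty acid genes, the most abundant differed little between genotypes. Scd2, which puts the first double bond into saturated fatty acids, was at 1060, 961 and 908 CPM in male floxed, 1035, 996 and 1051 in male knockout, 1062, 909 and 1018 in female floxed and 1026, 1084 and 1129 in female knockout libraries. The groups overlapped in both sexes, and female knockout libraries 1 and 3 did not stand apart. The log2 fold change was 0.07 in males (SE 0.09, edgeR adjusted p = 0.999) and 0.12 in females (SE 0.09, edgeR adjusted p = 0.489), with intervals of -0.14 to 0.28 and -0.09 to 0.33. Elovl6, which lengthens palmitate, had values of -0.14 in males and -0.08 in females, and Fads1, which desaturates polyunsaturated fatty acids, 0.27 and -0.45. Without libraries 1 and 3 the female values were 0.13 for Scd2, -0.36 for Elovl6 and 0.25 for Fads1, the last with its direction reversed.

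Acaca, which makes malonyl-CoA, was uneven in males and was singled out after its values were seen. It was at 23.8, 18.0 and 60.3 CPM in male floxed and 30.7, 68.9 and 35.4 in male knockout libraries, and at 20.7 to 26.8 CPM in all 6 female libraries. Acaca was highest in male floxed library 4 and male knockout library 2. These were also the male libraries with the highest myeloid and dendritic sums, 1439 and 1545 CPM. Female floxed library 1 and female knockout library 3 had sums of 1247 and 1608 and Acaca at 21.2 and 22.6 CPM. Markers within the sum differed in both directions between these male and female libraries. Itgax was at 51.1 and 57.4 CPM in the male and 16.9 and 28.8 in the female ones, and Mrc1 at 18.8 and 29.2 against 314 and 320. The male log2 fold change of Acaca was 0.40 (SE 0.43, edgeR adjusted p = 0.984), and 0.67 (SE 0.22, edgeR adjusted p = 0.423) without both of those male libraries. The part of other cells in these values was not tested. In such bulk libraries, fewer cells of a type and less RNA per cell cannot be told apart.

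The summed levels of proliferation genes lay higher in every knockout library than in any floxed library of the same sex. The summed level of 12 S phase genes was 1022 to 1361 CPM in male floxed and 1656 to 1860 in male knockout, and 1084 to 1215 in female floxed and 1806 to 1898 in female knockout libraries. That of 12 G2 and M phase genes was 342 to 646 against 661 to 922 CPM in males, and 390 to 443 against 728 to 802 in females. Not every gene of the lists followed its sum. Rrm2 was at 61.2 and 99.8 CPM in female knockout libraries 1 and 3 and at 255 in library 2, against 115 to 143 in female floxed libraries. Slbp, Mcm6 and Ccnb2, on the minus strand, also lay below every female floxed library in libraries 1 and 3. So did Ung, on the plus strand, at 2.47 and 3.32 CPM against 3.71 to 8.91. Over both contrasts, edgeR called 5 of the 12 S phase and 3 of the 12 G2 and M phase genes higher and none lower. Of all 12411 genes it called 3.31%, 332 higher and 79 lower. The S phase sum of female knockout library 2, 1806 CPM, was close to those of libraries 1 and 3, but genes within it differed in both directions. Rrm1 was at 475 CPM in library 2 against 648 and 601 in libraries 1 and 3, while Rrm2 was higher in library 2. The G2 and M phase sum was 728 CPM in library 2, against 794 and 802 in libraries 1 and 3. The part of proliferation genes in the levels of the cholesterol genes was not tested.

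Of the 19 minus-strand genes, 7 were kept. Fdft1, the squalene synthase, was the best counted at a mean of 44.0 CPM, although 774 of its exon bases are shared with the plus strand. The citrate lyase Acly was at 16.4, Abca1 at 4.89, the sterol desaturase Sc5d at 2.82 and the thiolase Acat2 at 2.73 CPM. Cyp51 and Ebp were just inside the limit at 1.01 and 1.0 CPM, and Insig2 and Msmo1 just outside it at 0.890 and 0.735. Cyp51, which demethylates lanosterol, was at 0.552, 0.931 and 0.556 CPM in male floxed, 1.32, 1.19 and 1.25 in male knockout, 1.15, 0.831 and 0.979 in female floxed and 1.27, 1.0 and 1.03 in female knockout libraries. Its male groups did not overlap and its female groups did, on 8 to 33 reads per library. Its counts are uncertain too, with 166 exon bases shared with the plus strand. Its log2 fold change was 0.88 in males (SE 0.29, edgeR adjusted p = 0.372), 0.16 in females (SE 0.29, edgeR adjusted p = 0.770) and 0.52 over both (SE 0.21, edgeR adjusted p = 0.195), and the difference between the sexes, -0.73, had an edgeR adjusted p of 0.892. Of the other 5, Fdft1 had female and male values of 0.49 and 0.12, Ebp 0.66 and -0.25, Acat2 0.44 and -0.19, Acly 0.30 and 0.04, and Sc5d 0.29 and 0.07. Without female knockout libraries 1 and 3 the female values were 0.07 for Fdft1, 0.29 for Ebp, -0.29 for Acat2, -0.38 for Acly, 0.08 for Sc5d and 0.02 for Cyp51, so that the direction reversed for Acat2 and Acly.

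The 12 genes that were not kept were all on the minus strand: Mvd, Fdps, Msmo1, Hsd17b7 and Tm7sf2 of the cholesterol route, Fasn, Fads2 and Scd1 of the fatty acid route, the regulators Srebf1 and Insig2, the cholesterol carrier Stard4 and the LXR receptor Nr1h2. Fdps, the farnesyl diphosphate synthase, had 0 counts in every library, which allows up to 3 counts or 0.114 to 0.233 CPM per library, counting error only. Scd1 had at most 2 counts in a library, Srebf1 2 to 9 and Fasn 1 to 7. Only Msmo1 and Insig2 of the 12 passed the count filter of the test, with values over both of -0.06 and -0.13. The level of the other 10 could not be compared between genotypes at this depth on this strand.

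Of 40 further genes of lipid metabolism (uptake, storage, esterification, acyl-CoA synthesis and elongation), all were in the table and 34 were tested. None passed in any contrast by edgeR, beside the same 0.0242, 0.201 and 3.31% of all genes. Their median log2 fold change, both strands together, was 0.00 in males, 0.02 in females and 0.04 over both. The 20 of them on the plus strand had medians of -0.03, -0.26 and -0.14. All plus-strand genes tested had medians of 0.03, -0.003 and -0.005. At an unadjusted p under 0.05 there were 3 higher and 1 lower of the 34 in males (8.12% of all genes). There were 1 higher and 2 lower in females (19.2%), and 3 higher and 2 lower over both (20.2%). DESeq2 called 0 in males (2.03% of all genes), 0 in females (7.3%) and 1 lower over both (9.17%). Limma-voom called 1 lower in males (1.43%), 3 higher and 7 lower in females (43.8%), and 5 higher and 6 lower over both (37.3%). The smallest p over both belonged to Acss2, which makes acetyl-CoA from acetate, at -1.05 (SE 0.31, edgeR adjusted p = 0.0937), and to the elongase Elovl1 at 0.39 (SE 0.12, edgeR adjusted p = 0.107), both named after their values were seen.

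Between the sexes, floxed females were compared with floxed males as a baseline. By edgeR 0 of the 23 genes passed, and 0 had an unadjusted p under 0.05, beside 0.0322 and 6.14% of all genes; the smallest adjusted p was 0.665. The groups did not overlap for Hmgcs1, Elovl6 and the minus-strand gene Acat2, higher in females beside 10.7% of all genes, and for Scap, Insig1 and Abcg1, lower in females beside 14.3%. For Insig1 the log2 difference was -1.44 (SE 0.76), with an interval of -3.13 to 0.25. Sex and zygosity differ together between these groups and cannot be told apart.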

How the data were processed

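The deposited file held raw read counts per gene symbol for 12 libraries, made from total RNA with stranded SMARTer kits, per the labels' protocols. The authors used HTSeq 0.6.1p1, CASAVA and STAR (2.3.0e and 2.5.2b) on mm9, per the submitters' processing notes; the roles of the STAR versions, the annotation and the strand setting were not given in the sources used here. The summary entries of HTSeq, 64.3 to 70.5% of reads, were left out. Strand, GC content and length came from GENCODE M21 by symbol, which matched 54510 of 55453 genes. The build differs from mm9, so no positions from it are printed. Exon bases shared with the other strand were computed from its exons, and may differ from those of the annotation used for counting. Promoters came from RefSeq, GRCm38.p6.

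Genes were filtered with filterByExpr (minimum count 10), scaled by TMM and fitted with edgeR 4.0.16 in R 4.3.3 (glmQLFit, robust, 1 mean per group, 12 libraries). P-values were adjusted over all 12411 genes tested, with a threshold of 0.05. The code was tested on simulated data. The 35 members, the marker and pathway lists, the comparisons and the alternatives were chosen with earlier results of these data known. Every library's value was given for the 6 kept members with the smallest p over both contrasts, for the highest plus-strand member of each role, and for Srebf1, Srebf2, Insig1, Abca1, Abcg1, Scd1 and Scd2 where kept; others are marked as chosen later. Marker lists were T cell and Treg, myeloid and dendritic, double-positive thymocyte, S phase, and G2 and M phase. Summed CPM of the others ran from 15.2 to 59.1 for B cell, 3.26 to 52.5 for thymic epithelial, 5.70 to 33.7 for erythroid and 143 to 268 for NK-like markers. Alternatives used DESeq2 1.42.0 and limma 3.58.1 among others. The GC and length correction removed a smooth trend (4 degrees of freedom) per library, estimated on 5628 genes, with values for 99.3% of tested genes. Figures used Python 3.11.15 with matplotlib 3.10.9.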

Additional observations from a re-analysis of the deposited data

How the results depend on the processing

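None of the alternatives with a male contrast called a gene in males. In females DESeq2 called 2 of the 21 genes it gave an adjusted p (Hmgcs1 and Nsdhl, both higher), beside 7.3% of all genes. Limma-voom with quality weights called 14 of 23, beside 43.8%. Over both contrasts DESeq2 called 3 (Hmgcs1 and Nsdhl higher, Abca1 lower), beside 9.17%, and limma-voom 13, beside 37.3%. For the difference between the sexes limma-voom called 2, beside 8.38%. Leaving out each library in turn gave 0 to 10 called genes in females, 0 to 8 over both and 0 to 2 for the difference between the sexes. The highest counts each came without female knockout library 2. All genes tested were then called at 23.7% in females, 22.6% over both and 8.5% for the difference. Without male knockout library 3 there was 1 over both, beside 6.11% of all genes. Over both, called genes without female knockout library 2 were 4 higher and 4 lower. Without female knockout libraries 1 and 3, an alternative chosen after seeing the data, no gene was called and Srebf2 in females reversed from -0.73 to 0.10. Leaving out knockout library 2 and floxed library 4 of the males, chosen in the same way, none was called. With CPM to the raw total, 5 genes in females had groups that did not overlap in place of 3, 4 higher beside 13.5% of all genes and 1 lower beside 10%. A minimum of 5 CPM kept 18 genes. The log2 ratio of the summed level of the 23 genes was 0.00 in males (-0.04 to 0.03 with each library left out) and -0.10 in females (-0.20 to -0.03).

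Whether library numbers pair the libraries could not be settled. Deviations from the group mean had correlations between same-numbered libraries of 0.50 and -0.67 in males and 0.24, 0.31 and -0.28 in females. Such deviations cancel out within each group, so that both signs must occur among the pairs. Between floxed and knockout libraries of different number they ran from -0.42 to 0.72 in males and from -0.53 to 0.52 in females. The highest was that of male floxed library 4 with male knockout library 2. A block by number cannot capture such links. With the number as a replicate block, 0 genes of the 23 were called in any contrast, as with the block and the GC and length correction together, while the count of all genes called over both went from 411 to 1218.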
